A study of Mus musculus with 9 samples.

Results

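Adrenomedullin, a peptide that widens vessels and tightens endothelium, and the parts of its receptor were followed through vessels and remaining tissue of the mouse brain. The genes are Adm, which encodes the peptide, Calcrl, which encodes the receptor core, and Ramp1, Ramp2 and Ramp3, which encode its partner proteins. They were chosen by name, as the 5 members of this ligand and receptor system among 18193 genes that the array measures with a probe set of their own. A probe set is a group of short probes read as 1 value, and 10 probe sets name a member alone. Of the other probe sets, 2 name Ramp2 together with Vps25, its neighbour on the chromosome, and were left out.

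There were 3 groups of 3 arrays, each array from 1 sample described as a biological replicate. Embryonic fragments were pieces of small brain vessels from NMRI mouse embryos at embryonic day 18.5, and rest of brain was the brain tissue of such embryos without the fragments. Adult fragments were the same kind of vessel piece from mice aged 1 year on a mixed C57/SV129 background, 2 males and 1 female. The sources used here state neither the sex of the embryos, nor the number of animals behind a sample, nor the method of isolation. RNA of embryonic samples was extracted with a micro kit and RNA of adult samples with a mini kit, so age, strain and kit cannot be told apart between adult and embryonic arrays. The description of rest of brain replicate 3 writes its embryonic day differently from its title, and the title was followed.

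Adrenomedullin is cut from a longer precursor and acts through the receptor core Calcrl, a class B receptor that couples to the stimulatory G protein and raises cyclic AMP. Calcrl needs a Ramp protein to reach the cell surface, and the Ramp sets which peptide it answers to. With Ramp1 it forms the receptor of calcitonin gene-related peptide (CGRP), and with Ramp2 or Ramp3 it forms receptors of adrenomedullin. Mice that lack Adm, Calcrl or Ramp2 die as embryos with swollen tissues and faulty blood and lymph vessels, whereas mice without Ramp3 survive. Adm is also a classic target of hypoxia-inducible factors.

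All levels are on a log2 scale, as GCRMA gives them after removing background and aligning the arrays, and a difference is likewise in log2 units. A value under 4 was treated as background. Array medians over 45101 probe sets were 3.58 to 3.67, and the correlation over the 12008 tested genes (across genes, which do not count as replicates) was 0.978 to 0.993 within groups and 0.569 to 0.866 between groups. All 12 listed endothelial markers were higher in embryonic fragments than in rest of brain, where Pecam1, Tie1, Erg and Emcn lay under 4 on every array, and their summed level (log2 of the summed linear values) was 17.02 to 17.22 in embryonic fragments, 17.26 to 17.39 in adult fragments and 9.09 to 9.73 in rest of brain. Embryonic fragments also exceeded rest of brain in all 8 listed markers of microglia and macrophages. Adult fragments held more RNA of smooth muscle genes than embryonic ones (7 of 8 higher, 1 lower), more of astrocyte genes (6 of 7 higher, 1 lower) and more of choroid plexus genes (5 of 6 higher). In such tissue samples fewer cells of a type and less RNA per cell cannot be told apart. The plot of marker lists by array shows these levels, and their part in the differences described next was not tested.

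**Figure D1:**
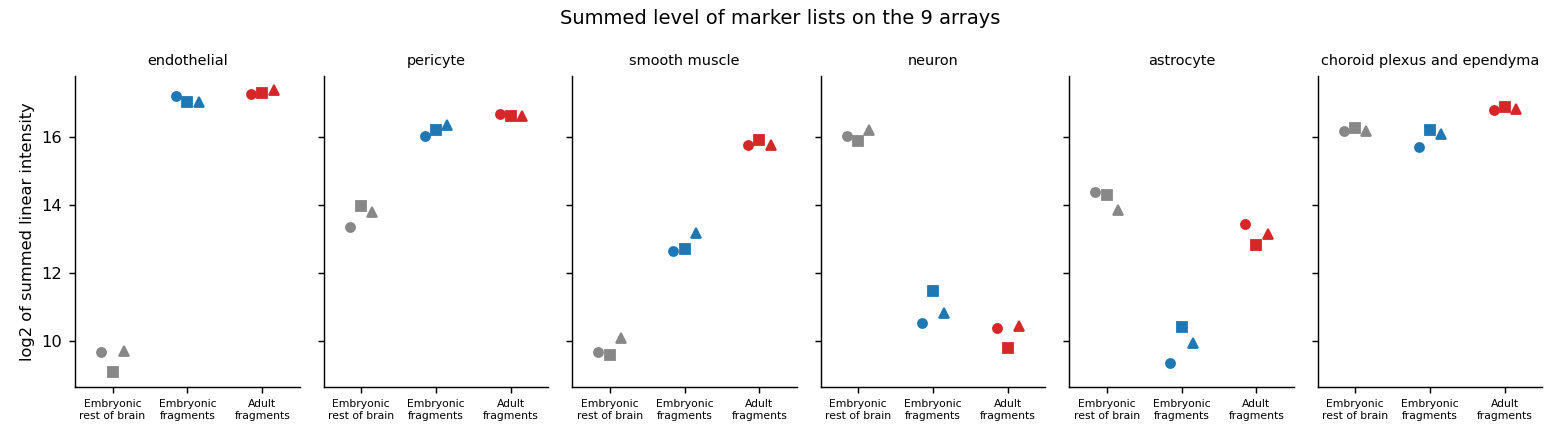
Summed level of 6 marker lists (y axis, log2 of the summed linear intensities of the list's genes) on each of the 9 arrays, by group (x axis); circles, squares and triangles are replicates 1, 2 and 3. The endothelial list lies at 17.02 to 17.39 on all fragment arrays, the smooth muscle list at 15.77 to 15.92 on adult and 12.66 to 13.18 on embryonic fragments, and the neuron list at 15.89 to 16.22 on rest of brain only.

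The upstream sequences of 3 members are shown because their genes went different ways between the groups, Adm highest in embryonic fragments, Calcrl highest in adult fragments and Ramp3 above background in adult fragments alone. Each is the 250 bases before the transcript start from RefSeq (GRCm38.p6), in the direction of the gene, and 4 of the 5 members had an entry in that table. Capitals mark the core of hypoxia response elements (ACGTG or GCGTG) and an Ets factor core (AGGAAG or CGGAAG), read on both strands. Adm lies at chr7:110627407-110627656 (plus strand), Calcrl at chr2:84425267-84425516 (minus strand) and Ramp3 at chr11:6658283-6658532 (plus strand).
Adm: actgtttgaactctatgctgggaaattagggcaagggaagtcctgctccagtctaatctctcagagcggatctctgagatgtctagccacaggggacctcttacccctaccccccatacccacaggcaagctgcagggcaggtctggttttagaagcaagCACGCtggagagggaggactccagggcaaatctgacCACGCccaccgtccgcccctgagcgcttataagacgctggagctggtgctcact
Calcrl: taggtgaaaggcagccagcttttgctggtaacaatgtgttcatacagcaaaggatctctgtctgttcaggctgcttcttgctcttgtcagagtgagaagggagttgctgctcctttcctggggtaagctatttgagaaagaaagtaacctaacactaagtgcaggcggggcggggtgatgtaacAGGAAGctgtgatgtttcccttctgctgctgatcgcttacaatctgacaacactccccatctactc
Ramp3: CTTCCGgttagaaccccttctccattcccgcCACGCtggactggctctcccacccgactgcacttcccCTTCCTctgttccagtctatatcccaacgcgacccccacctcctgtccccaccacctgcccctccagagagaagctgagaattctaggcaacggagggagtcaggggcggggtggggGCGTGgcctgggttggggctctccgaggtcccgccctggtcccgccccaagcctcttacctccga

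The Adm window holds 2 hypoxia cores, both on the minus strand, the nearer one 50 to 54 bases before the start, and no Ets core. Ramp3 holds 2 hypoxia cores and 2 Ets cores, and Calcrl holds 1 Ets core, 61 to 66 bases before the start, and no hypoxia core. Ramp1 holds neither word. Over 32851 windows of this length, 38.6% hold a hypoxia core and 39.2% an Ets core, so such matches are common and describe the sequence, not a bound factor.

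Adm differed more between embryonic vessels and rest of brain than the other 4 genes did, and it was lower in adult vessels. Its probe set 1416077_at read 12.45, 12.48 and 11.82 in embryonic fragments, 4.37, 5.17 and 5.35 in rest of brain and 6.97, 6.86 and 8.09 in adult fragments. The other, 1447839_x_at, whose name marks probes that may match further transcripts, read 12.14, 11.92 and 11.37 in embryonic fragments, 4.72, 4.71 and 4.71 in rest of brain and 8.35, 8.50 and 8.65 in adult fragments. On both probe sets the 3 groups were apart without overlap, in the order embryonic fragments, adult fragments, rest of brain.

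Between embryonic fragments and rest of brain Adm differed by 7.09 ± 0.19 on 1447839_x_at (log2 difference ± SE), 137-fold, which was rank 89 from the top of 12008 genes (limma adjusted p = 5.24e-09). On 1416077_at the difference was 7.29 ± 0.38, or 156-fold (limma adjusted p = 5.32e-07 over 23444 probe sets). The 3 rest of brain values of 1447839_x_at lay within 0.010 of each other, which is closer than replicates usually lie, and whether they are signal or the lower limit of that probe set was not tested.

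From embryonic to adult fragments Adm fell by 3.31 on 1447839_x_at (8.50 ± 0.15 against 11.81 ± 0.39, SD, n = 3), a 9.90-fold lower level (limma adjusted p = 1.76e-06). It fell by 4.94 on 1416077_at (7.31 ± 0.68 against 12.25 ± 0.37), a 30.7-fold lower level (limma adjusted p = 1.54e-05). The probe sets share the direction but differ in the size of the fall. Adult fragments stayed above rest of brain, by 3.79 ± 0.19 on 1447839_x_at and by 2.35 ± 0.38 on 1416077_at (limma adjusted p = 1.68e-07 and 5.75e-04). Marker lists moved with age as well. Of the 12 endothelial markers 4 were higher and 3 lower in adult fragments. The higher ones were Vwf (1.03), Emcn (0.99), Pecam1 (0.71) and Erg (0.67), and the lower ones Tie1 (-1.41), Kdr (-1.03) and Cdh5 (-0.69). The summed level of the 12 was 17.26 to 17.39 in adult against 17.02 to 17.22 in embryonic fragments. The lymphatic endothelial list summed to 10.92 to 11.54 in adult and 13.55 to 14.58 in embryonic fragments, with its defining marker Prox1 under 4 on all 6 of these arrays and Lyve1, also made by macrophages, at a difference of -7.76. The list of red cells and platelets summed to 11.08 to 11.36 against 12.97 to 13.72, with Pf4 at -4.52. Of its 4 tested genes 1 was higher, 2 were lower and 1 was not called. The macrophage marker Mrc1 differed by -4.84, but in its list of 8 genes 1 was higher, 1 lower and 6 not called. That list of microglia and macrophage markers summed to 16.24 to 16.75 in adult and 15.45 to 16.81 in embryonic fragments. The part of these cells in the Adm difference was not tested.

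**Figure D2:**
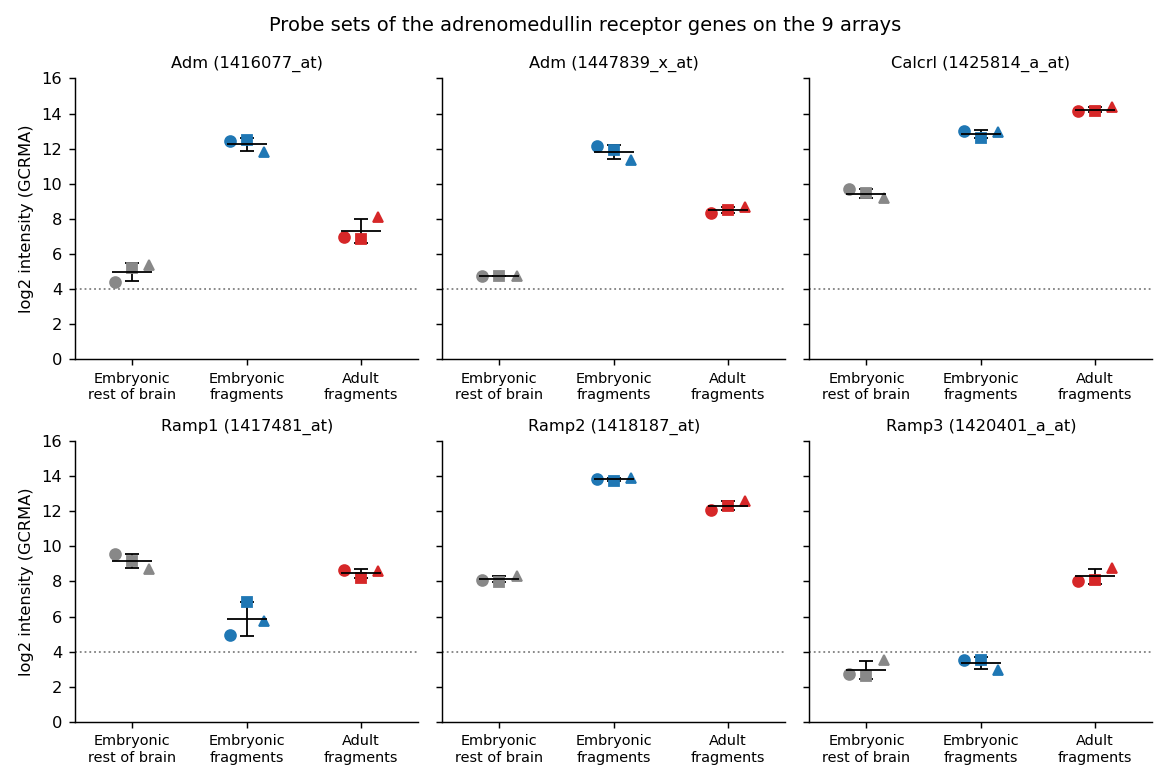
Values of the 6 member probe sets that reached 4 on at least 3 arrays (y axis, log2 intensity), by group (x axis). Circles, squares and triangles are replicates 1, 2 and 3, black bars give mean and SD, and the dotted line is the background value of 4. Adm and Ramp2 are highest in embryonic fragments, Calcrl in adult fragments, Ramp1 in the rest of brain and adult fragments, and Ramp3 lies above 4 in adult fragments only.

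Calcrl, the receptor core, was high in vessels of both ages and higher in the adult. Its probe set 1425814_a_at read 12.99, 12.58 and 12.92 in embryonic fragments, 9.67, 9.46 and 9.18 in rest of brain and 14.17, 14.13 and 14.36 in adult fragments. The 3 groups were apart without overlap and rest of brain was well above background. Calcrl was 10.5-fold higher in embryonic fragments than in rest of brain (3.39 ± 0.16, limma adjusted p = 1.94e-07) and rose 2.62-fold to adult fragments (1.39 ± 0.16, limma adjusted p = 1.30e-04). Adult fragments exceeded rest of brain by 4.79 ± 0.16. The other probe sets of Calcrl, 1418489_a_at and 1459536_at, gave no usable signal, with 1 value above 4 between them, 4.38 in adult replicate 3. A mean over all its probe sets therefore shrank the rise with age to 0.70, still called (limma adjusted p = 0.0230).

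Ramp2, the partner that makes Calcrl an adrenomedullin receptor, was strongly enriched in embryonic vessels and lower in the adult. The values were 13.82, 13.73 and 13.91 in embryonic fragments, 8.09, 7.96 and 8.30 in rest of brain and 12.05, 12.33 and 12.56 in adult fragments, again with no overlap. Ramp2 was 52.1-fold higher in embryonic fragments than in rest of brain (5.70 ± 0.15, rank 217 from the top, limma adjusted p = 5.68e-09). It fell by 1.51 from embryonic to adult fragments, a 2.84-fold lower level (limma adjusted p = 5.43e-05), while Calcrl rose. Adult fragments remained 18.3-fold above rest of brain (4.20 ± 0.15, limma adjusted p = 2.36e-08).

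Ramp3, the other partner in adrenomedullin receptors, was at background in the embryo and clearly measured in the adult vessels. The values were 3.53, 3.53 and 2.96 in embryonic fragments, 2.73, 2.62 and 3.53 in rest of brain and 8.04, 8.06 and 8.79 in adult fragments. All 6 embryonic values were under 4, and 3 of them were the same value, 3.53. Adult fragments (8.30 ± 0.43) were therefore at least 19.7-fold higher than either embryonic group, with the background value of 4 as the lower side (limma adjusted p = 2.62e-06 against embryonic fragments and 3.98e-07 against rest of brain). By the fitted difference, which leans on values at background, Ramp3 had rank 108 from the top of 12008 genes between adult and embryonic fragments. No fold is given between the embryonic groups (difference 0.38 ± 0.30, limma adjusted p = 0.300).

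Ramp1, the partner in the CGRP receptor, ran against Adm, Calcrl and Ramp2 in the embryo. The values were 4.94, 6.85 and 5.76 in embryonic fragments, 9.57, 9.19 and 8.73 in rest of brain and 8.63, 8.17 and 8.62 in adult fragments. Embryonic fragments were apart from both other groups, and they varied most, with an SD of 0.96 against 0.42 in rest of brain and 0.26 in adult fragments. Ramp1 was 9.96-fold lower in embryonic fragments than in rest of brain (fell by 3.32, SE 0.44, limma adjusted p = 1.47e-04). It was 6.17-fold higher in adult than in embryonic fragments (2.62 ± 0.44, limma adjusted p = 9.65e-04). Adult fragments and rest of brain differed by -0.69 ± 0.44, without a call (limma adjusted p = 0.180), although the arrays did not overlap, and with those groups fitted alone the same difference was called (limma adjusted p = 0.0390).

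Neurons and smooth muscle are known to make Ramp1. The summed neuron marker level was 15.89 to 16.22 in rest of brain, and in embryonic fragments it was 10.55, 11.47 and 10.85 for replicates 1, 2 and 3, so that replicate 2 had the highest Ramp1 and the highest neuron marker level. Astrocyte markers stood in the same order there, at 9.35, 10.43 and 9.94, and so did oligodendrocyte markers, at 11.10, 11.91 and 11.54. In adult fragments the summed neuron marker level was 9.81 to 10.45, with Elavl3, Tubb3, Rbfox3, Slc17a7, Dcx and Nefl under 4 on all 3 arrays. Of the 9 tested neuron markers 5 were lower in adult than in embryonic fragments, 1 was higher and 3 were not called. Ramp1 was higher in adult than in embryonic fragments. Smooth muscle markers were at 15.77 to 15.92 in adult fragments and 9.60 to 10.09 in rest of brain. In embryonic fragments they were at 12.66, 12.71 and 13.18 for replicates 1, 2 and 3, with Cnn1 and Lmod1 under 4 on all arrays. They were thus highest in replicate 3, unlike Ramp1, and so were the pericyte, the microglia and macrophage and the fibroblast markers. Choroid plexus and ependyma markers, of which Otx2 is 1, summed to 15.70, 16.22 and 16.09 in embryonic fragments, in the order of Ramp1. Their sums were 16.18 to 16.27 in rest of brain and 16.81 to 16.88 in adult fragments. Orders over 3 arrays were not tested. The part of these cell types in the Ramp1 and Ramp3 differences was not tested. The other probe sets of Ramp1, 1431413_at and 1447474_at, stayed under 4 on all arrays.

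Counted together, 4 of the 5 members were called between embryonic fragments and rest of brain, against 66.1% of all genes tested. Adm, Calcrl and Ramp2 were higher (28.9% of all genes were called higher) and Ramp1 lower (37.2%). All 5 were called between adult and embryonic fragments, against 57% of all genes, with Calcrl, Ramp1 and Ramp3 higher (27.4%) and Adm and Ramp2 lower (29.7%). Between adult fragments and rest of brain 4 were called, against 76% of all genes, and all 4 were higher (33.1% of all genes were called higher and 42.9% lower). The arrays of the groups did not overlap for 4, 5 and 5 members in these 3 comparisons, against 76.7%, 62.6% and 79.9% of all genes. With such shares the counts do not set the members apart, and the sizes of the differences tell more than the calls. The comparisons share groups, so they are not independent of each other.

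**Figure D3:**
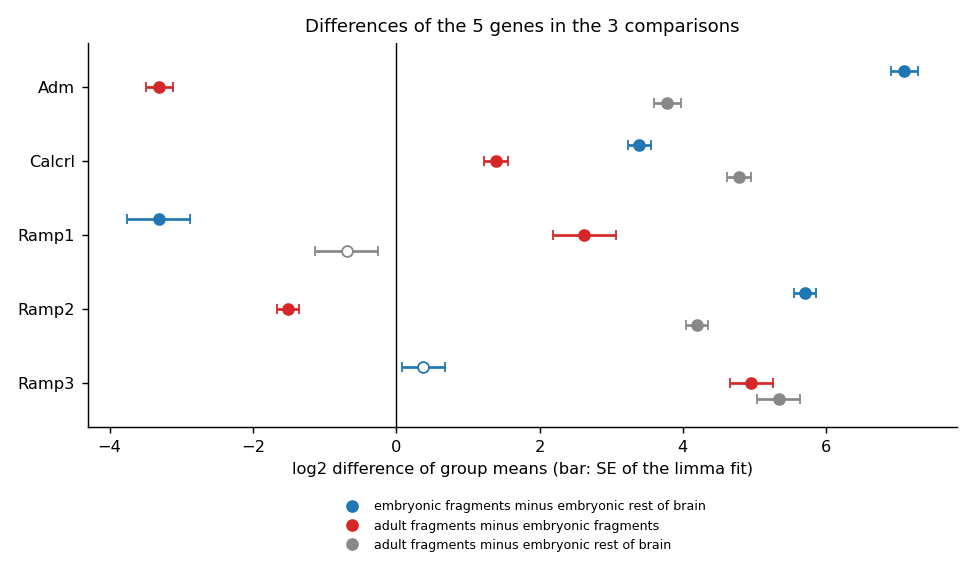
Log2 differences of group means (x axis; bars are the SE of the limma fit) for the 5 genes (y axis), in colours for the 3 comparisons; filled points were called at an adjusted p under 0.05. Adm and Ramp2 are right of 0 in the embryonic comparison and left of 0 between adult and embryonic fragments, Ramp1 is the reverse, and Ramp3 lies near 0 in the embryonic comparison only.

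Because Calcrl acts in pairs with the Ramp proteins, each was also set against Calcrl within an array. Such a difference cannot rank genes, as probe sets differ in brightness, but its change between groups shows whether both genes changed equally. Ramp2 relative to Calcrl changed by -2.90 on the log2 scale from embryonic to adult fragments, from 0.99 ± 0.16 to -1.91 ± 0.18 (SD, n = 3). With its embryonic values, all at background, set to 4, Ramp3 rose by at least 2.91 relative to Calcrl and by at least 5.80 relative to Ramp2 between the same groups. Ramp1 relative to Calcrl changed by 1.23, and its arrays overlapped (exact permutation test, 2-sided, p = 0.3). That change was 0.70 without embryonic fragments replicate 1 and 1.86 without replicate 2.

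In the embryo, Ramp2 relative to Calcrl was 2.31 higher in fragments than in rest of brain, and Adm relative to Calcrl 3.70 higher, while Ramp1 relative to Calcrl differed by -6.71. From embryonic to adult fragments Adm relative to Calcrl changed by -4.70. Of the 12 such comparisons, 11 gave p = 0.1 by the exact permutation test, 2-sided, which is the smallest that 3 against 3 arrays allow, and 0.109 after adjustment over the 12. This test cannot reach a p under 0.05 with 3 against 3 arrays, and the values of Ramp3 in it rest on embryonic arrays at background.

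**Figure D4:**
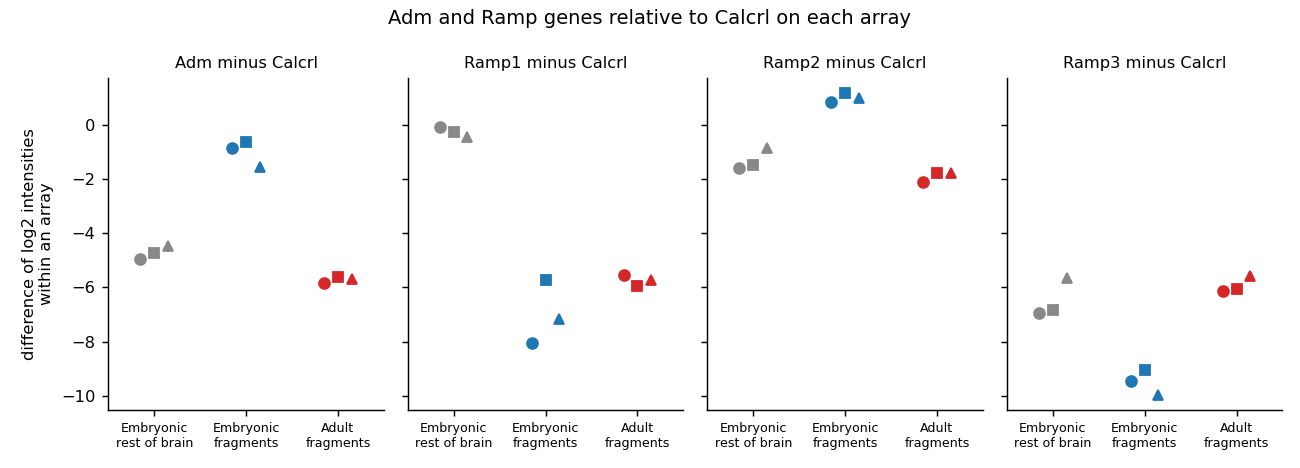
Difference between the log2 intensity of Adm, Ramp1, Ramp2 or Ramp3 and that of Calcrl on the same array (y axis), by group (x axis); circles, squares and triangles are replicates 1, 2 and 3. Ramp2 minus Calcrl and Adm minus Calcrl are highest in embryonic fragments, and Ramp3 minus Calcrl is lowest there, where Ramp3 lies at background, as in rest of brain, and Calcrl is higher.

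Among other peptides of the family, Calcb (a CGRP gene), Adm2 (intermedin) and Iapp (amylin) had no measurable signal in any group, and neither had the calcitonin receptor Calcr. Calca, the other CGRP gene, has no probe set of its own in the annotation and was not analysed here. In the list of 4 peptides and the list of 12 further receptors, 11 measured genes never reached 4, the highest single value being 3.50. Besides Calcr these receptors were Vipr1, Vipr2, Pth2r, Gcgr, Crhr1, Sctr and Casr, class B or other receptors reported to pair with Ramp proteins. The 4 receptors that were tested were Ackr3, Gper1, Gpr182 and Pth1r. In embryonic fragments against rest of brain 3 of them were higher and 1 lower, with a median difference of 1.74 against -0.10 over all genes. Of all genes 28.9% were called higher and 37.2% lower.

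Ackr3, which binds adrenomedullin and the chemokine Cxcl12 without G protein signalling, was lowest in the embryonic fragments, where Adm was highest. It was at 10.28 ± 0.11 in embryonic fragments, 11.28 ± 0.19 in rest of brain and 13.56 ± 0.20 in adult fragments. It was thus lower in embryonic fragments than in rest of brain (-1.003 ± 0.145, limma adjusted p = 2.60e-04) and rose by 3.29 ± 0.14 to the adult (limma adjusted p = 3.99e-07). Gper1, a membrane estrogen receptor known to pair with Ramp3, was at 8.84 ± 0.07 in rest of brain, 10.84 ± 0.20 in embryonic and 12.46 ± 0.10 in adult fragments. Its rise with age was 1.62 ± 0.13 (limma adjusted p = 1.09e-05).

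Gpr182, an endothelial receptor once proposed to bind adrenomedullin, was at 6.20 ± 0.87 in embryonic fragments, under 4 on all 3 arrays of rest of brain and at 3.99 ± 0.10 in adult fragments, between 3.88 and 4.08 and so at the edge of background. It was at least 4.59-fold higher in embryonic fragments than in rest of brain (limma adjusted p = 3.12e-04) and fell by 2.21 to the adult (limma adjusted p = 9.06e-04). Pth1r, the parathyroid hormone receptor, was higher in embryonic fragments than in rest of brain (1.49 ± 0.17, limma adjusted p = 6.27e-05). Its difference of 0.49 with age was called (limma adjusted p = 0.0374) but lost the call without any 1 of 7 arrays, namely adult replicates 2 and 3, embryonic fragments replicates 1 and 2 and each rest of brain array (limma adjusted p = 0.0541 to 0.119).

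Of 8 genes that process, bind or break down such peptides 5 were tested. Ece1, an endothelin-converting enzyme, was higher in embryonic fragments than in rest of brain by 2.96 ± 0.10 (limma adjusted p = 2.31e-08). In that comparison 2 of 5 genes were higher and 2 lower (median -0.08), against 28.9% and 37.2% of all genes. Cpe, carboxypeptidase E of prohormone processing, was lower in embryonic fragments by a difference of -2.39 ± 0.13 and rose by 2.59 ± 0.13 to the adult fragments (limma adjusted p = 3.97e-07 and 8.40e-07). With age 4 of the 5 were higher and 1 lower (median 1.13 against -0.02 over all genes). Of all genes 27.4% were called higher and 29.7% lower. Among the higher ones Ece1, at 0.44, lost its call with its next probe set (0.027, limma adjusted p = 0.978). The lower one was Ide, insulin-degrading enzyme, with -0.51 ± 0.12. Ide was called higher in embryonic fragments than in rest of brain by 0.46 (limma adjusted p = 0.00870), a call lost with its next probe set (0.0026, limma adjusted p = 0.991).

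Downstream of the receptor, all 21 tested genes of the cyclic AMP list were called between embryonic fragments and rest of brain, 9 higher and 12 lower (median -0.47), against 66.1% of all genes called, 28.9% higher and 37.2% lower. Adcy4, the adenylyl cyclase of endothelium, was at least 102-fold higher in embryonic fragments (10.68 ± 0.20, rest of brain under 4 on every array) and was not called with age (0.28 ± 0.14, limma adjusted p = 0.120). Adcy1, a cyclase of neurons, differed by -5.37 ± 0.28 between embryonic fragments and rest of brain (limma adjusted p = 2.98e-07), beside the neuron markers, all 9 of which were lower in fragments. From embryonic to adult fragments 12 of the 21 were higher and 1 lower (median 0.42), against 27.4% and 29.7% of all genes.

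Adcy5, another cyclase, rose by 3.74 ± 0.10 with age (limma adjusted p = 2.61e-08), although its next probe set gave 0.46 without a call (limma adjusted p = 0.118). Gnas, the stimulatory G protein subunit, fell by 0.55 with age (limma adjusted p = 0.00149). In the list of desensitization and trafficking 6 genes were tested. In embryonic fragments 1 was higher and 2 were lower than in rest of brain, against 28.9% and 37.2% of all genes. Grk5, a receptor kinase, was higher by 3.65 ± 0.15 (limma adjusted p = 6.75e-08), and the scaffold Slc9a3r1 had a difference of -1.06 ± 0.20 (limma adjusted p = 0.00151). With age 1 of the 6 was called, against 57% of all genes. It was Grk6, a receptor kinase, at -0.47 ± 0.12 (limma adjusted p = 0.00891).

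Genes induced by hypoxia, the list to which Adm itself would belong, held members that went either way. Of 10 tested, 5 were higher and 1 lower in embryonic fragments than in rest of brain (median 0.21), against 28.9% and 37.2% of all genes. With age 3 were higher and 3 lower (median 0.28 against -0.02 over all genes), where 27.4% of all genes were higher and 29.7% lower. Ankrd37, a direct target of hypoxia-inducible factors, shared the pattern of Adm, with 11.99 ± 0.26 in embryonic fragments, 7.97 ± 0.07 in rest of brain and 9.82 ± 0.43 in adult fragments. It was higher by 4.02 ± 0.22 in embryonic fragments (limma adjusted p = 4.01e-07) and fell by 2.17 with age (limma adjusted p = 5.19e-05). Vegfa, the vessel growth factor, differed the other way from Adm in the embryo, by -2.90 ± 0.26 (limma adjusted p = 1.03e-05), and was not called with age. Slc2a1, the glucose transporter of the blood-brain barrier, was higher by 4.33 ± 0.14 in adult fragments than in rest of brain (limma adjusted p = 1.03e-08). Egln3, an oxygen-sensing hydroxylase, was at least 24.1-fold lower in adult than embryonic fragments (limma adjusted p = 9.39e-08), but its next probe set gave -0.32 without a call (limma adjusted p = 0.0597). Ndrg1, a stress-induced gene also strong in myelinating cells, rose by 2.45 ± 0.40 with age (limma adjusted p = 8.94e-04).

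**Figure D5:**
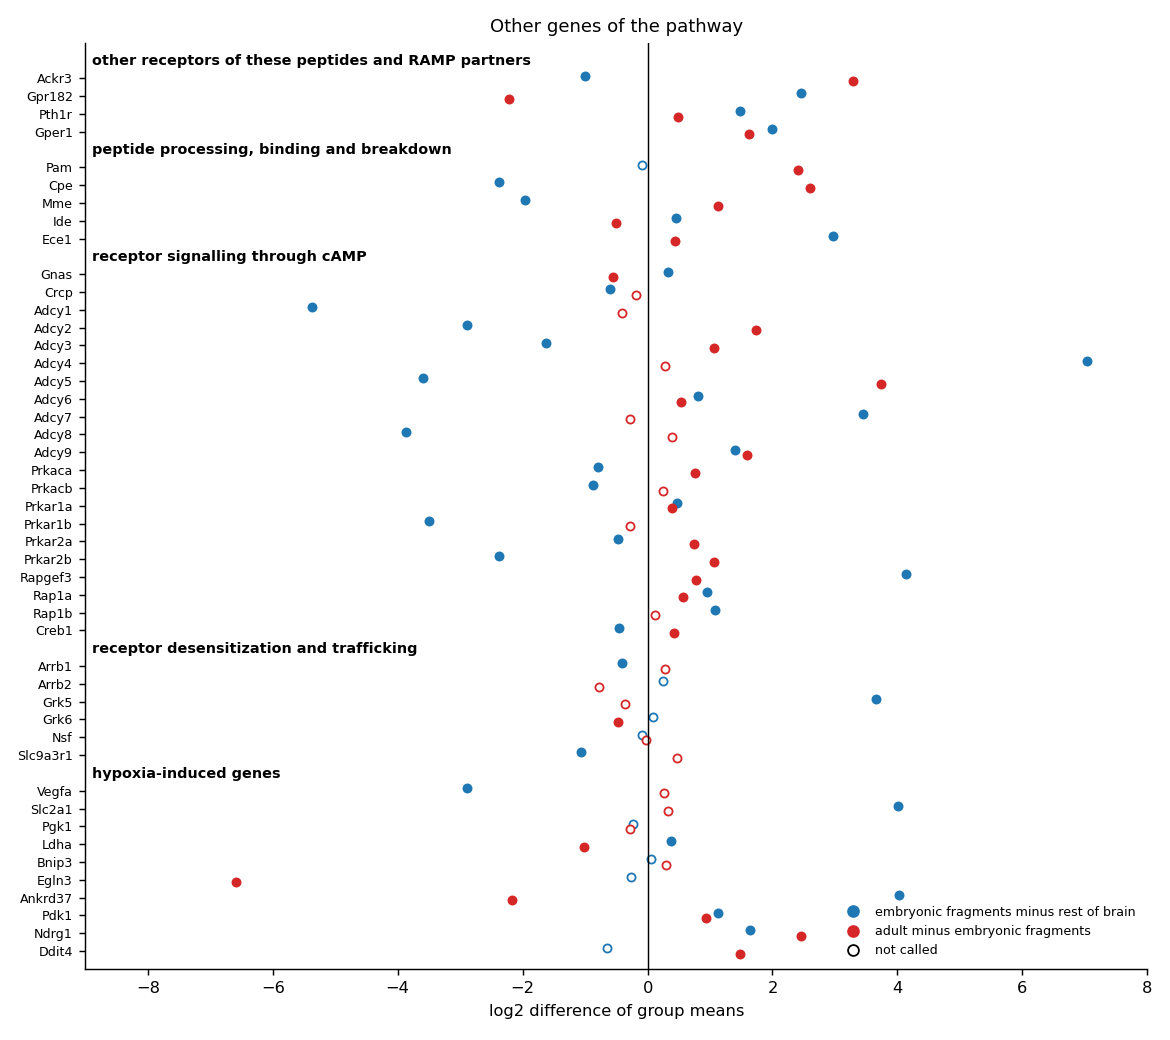
Log2 differences of group means (x axis) for the 46 tested genes of 6 pathway lists fixed by name (y axis; the list of related peptides had no tested gene); blue is embryonic fragments minus rest of brain, red is adult minus embryonic fragments, and open points were not called. In the cyclic AMP list Adcy4 lies at 7.04 and Adcy1 at -5.37 in the embryonic comparison.

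The genes whose profile over the 9 arrays came nearest to a member were found by the root mean square difference of values centred on each gene's own mean, a description over arrays that share groups. Nearest to Ramp2 were Gja4, a connexin of arterial endothelium, at 0.21, Sh3tc1 at 0.26 and Bcl6b, an endothelial transcription factor, at 0.27. Nearest to Calcrl were Anxa4, a calcium-dependent membrane binder, at 0.20, Utrn, the dystrophin relative utrophin, at 0.21 and Ifitm3, an antiviral membrane protein, at 0.21. Nearest to Adm were Tbx4, a transcription factor, at 0.47, Plxnd1, an endothelial semaphorin receptor, at 0.48 and Gdap10 at 0.51. These differences exceed those for Calcrl, but the measure also grows with a gene's range over the arrays. Correlations over the 9 arrays were 0.987 to 0.992 for the genes nearest to Adm and 0.994 to 0.995 for those nearest to Calcrl.

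Nearest to Ramp1 were Otx2, a transcription factor of choroid plexus and anterior brain, at 0.29, Ociad2 at 0.31 and the growth factor receptor Fgfr2 at 0.35. Nearest to Ramp3 were Nxpe2 at 0.33, 5033404E19Rik at 0.34 and Mocos, an enzyme that activates the molybdenum cofactor, at 0.34, all 3 of which had mean values under 4 in both embryonic groups and of 7.15 to 8.06 in adult fragments. With values under 4 set to 4, of the 3 nearest genes 2 stayed for Adm, 3 for Ramp1 and 1 each for Calcrl, Ramp2 and Ramp3.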

How the data were processed

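Expression was measured on short oligonucleotide arrays of the mouse genome in 9 samples, 1 array each. The submitters' processing notes name GCRMA 2.6.0 and R 2.4.1, and the deposited values are log2 intensities per probe set. The log2 scale was read from their range, and scanner files, detection calls and scan dates were not analysed here. GCRMA sets the arrays' distributions nearly equal, so a change in total RNA per cell cannot be seen. Precision is limited by how few arrays there are. No arrays were identical, and 0 further per-sample columns were present.

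Probe sets that name 1 gene (34958 of 45101; 932 name several and 9211 are unnamed here) were kept without the 64 control probe sets. Symbols were checked by Entrez identifier against RefSeq GRCm38.p6, which found 34754 and changed 0. A gene was represented by its probe set with the highest mean and tested where that had at least 4 on at least 3 of 9 arrays (12008 genes). All 9 arrays went into 1 fit of limma 3.58.1 (lmFit, eBayes, 2-sided, run in R 4.3.3), with Benjamini-Hochberg adjustment over all genes and calls under 0.05. A second fit covered 23444 probe sets. The fit was tested on simulated data. "At least" folds set the brighter mean against 4 where every array of the dimmer group lay under it.

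Embryonic fragments and rest of brain with the same replicate number deviated together, with r of 0.194 to 0.217 in 3 pairs. The 6 other pairs had -0.209 to -0.0210. Deviations were taken from each group's mean and so cancel out within a group. Positive r in the same-number pairs therefore pushes the others to negative r, and their sign is no separate evidence. The fits above used group alone, without pairs. Replicate numbers were taken as pairs only in the alternatives with a replicate block. Adult and embryonic arrays of the same number had r of -0.0923 to 0.214. Of those with other numbers, adult replicate 2 reached 0.208 with embryonic fragments replicate 1. As r of this size also arose across ages, it does not establish the embryonic pairing. The members, 6 pathway lists and 11 marker lists were chosen by name, with earlier results of these data known. Genes named from a list were the called gene with the largest difference in each direction per comparison and every measured member of the peptide and receptor lists. For each member the 3 nearest profiles were named.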

Additional observations from a re-analysis of the deposited data

How the results depend on the processing

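Every call of Adm, Calcrl, Ramp2 and Ramp3 kept its direction and its side of the threshold under all alternatives that could be run. There were 22 to 25 for each comparison, but not each was a separate check. Ramp2 and Ramp3 have only a single probe set, so choosing or averaging probe sets kept their values. Leaving out an array of the group not compared also kept the difference. For Ramp1 the call between adult fragments and rest of brain alone changed, passing with the 2 groups compared alone at -0.69 (limma adjusted p = 0.0390). Sizes moved by over 1.5 times with the mean of all probe sets, which draws in those at background: Ramp1 went to -1.19 between the embryonic groups, to 0.87 with age and to -0.32 between adult fragments and rest of brain, and Calcrl to 1.33, 0.70 and 2.03. Adm between adult fragments and rest of brain went to 2.35 with its other probe set. The difference of Ramp3 between the embryonic groups, at background in both, was 0 to 0.66. With the probe set of the next highest mean, which for Calcrl and Ramp1 lies at background, 3 members were called between adult and embryonic fragments and 2 between embryonic fragments and rest of brain. Of these, Adm alone was called on a different probe set, as Ramp2 and Ramp3 have no further probe set and kept the same values. Without probe sets ending in _s_at, _x_at or _a_at, which removes every measured probe set of Calcrl and Ramp3, 3 were called between adult and embryonic fragments and 2 between adult fragments and rest of brain. An alternative chosen after seeing the data left out _s_at and _x_at only and changed no call of a member. With the replicate block, Calcrl in the embryonic comparison kept 3.39 (limma adjusted p = 3.45e-06), and the block changed no call of a member; the exception among named genes was Slc9a3r1 between adult fragments and rest of brain (-0.59, limma adjusted p = 0.0510). Without each replicate in turn 5 members stayed called between adult and embryonic fragments and 4 in each other comparison, and Ramp1 ranged from -3.82 to -2.86 in the embryonic comparison. Named genes outside the members gave 28 lost calls, 17 gained and 5 changed signs. The signs changed for Grk6 between embryonic groups with the mean of all probe sets (-0.28), for Ide between adult fragments and rest of brain with cyclic loess (0.10) and without adult fragments replicate 3 (single arrays left out gave -0.13 to 0.022), and for Slc2a1 between adult and embryonic fragments with the mean of all probe sets (-0.10) and without _s_at, _x_at and _a_at (-0.77). The cause was not tested. Values near 4 limit Ramp3 in the embryo and Adm in rest of brain.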
